A study of Mus musculus with 12 samples.

Results

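Gammaretroviral endogenous retroviruses of the mouse are the murine leukaemia virus (MuLV) proviruses and the related VL30 and GLN elements. They were read here as RepeatMasker classes, in each of which the reads of all genomic copies of a kind were pooled. Members were taken by family name, as the classes called MuLV, RLTR4, RLTR6, MMVL30 or MMERGLN. These were 7 of the 1217 classes in the repeat table, with 5 internal regions (MuLV-int, RLTR4_MM-int, RLTR6-int, MMVL30-int and MMERGLN-int) and 2 long terminal repeat (LTR) classes (RLTR4_Mm and RLTR6_Mm). All 7 passed the filter on low values, which 939 of the 1217 classes passed.

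The cells were Tet2 KO mouse embryonic stem cells (ESCs) that stably carried a PiggyBac construct for WT TET2 or for TET2 with the changes H1304Y and D1306A, a catalytic mutant. All of them were also transduced with lentiviral shSetdb1, an shRNA against the H3K9 methyltransferase gene Setdb1, and selected with puromycin. They grew on gelatin without feeders, either in 2i medium with LIF and inhibitors of MEK and GSK3 (naïve) or in serum medium with LIF (primed). Each of the 4 groups has 3 RNA-seq libraries made from polyadenylated RNA: WT naïve, mutant naïve, WT primed and mutant primed. No library without shSetdb1 was analysed here, so no value measures the response to the depletion of SETDB1. The labels do not say whether a rescue line was 1 clone or whether the libraries of a group were separate cultures.

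A gammaretroviral provirus is an internal region that codes for Gag, Pol and, in MuLV, Env, flanked by an LTR at each end that holds the promoter. Solitary LTRs, left where the flanking LTRs of a provirus recombined, add reads to an LTR class and none to an internal class. VL30 elements lack functional viral genes and are packaged by MuLV particles, GLN elements are named for the glutamine tRNA that matches their primer binding site, and in ESCs the zinc finger protein ZFP809 binds the proline tRNA primer binding site of MuLV and recruits TRIM28 and SETDB1.

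The deposited values are log2-scale values after a variance-stabilising transformation, and a difference of 1 is close to a doubling of the reads where counts are high and stands for a larger ratio where they are low. Recovered repeat reads ranged from 3156928 to 13718028 per library. The members together held from 16085 reads in mutant primed 1 to 107859 in WT primed 3. Their share of the repeat reads outside ribosomal RNA (rRNA) ran from 1.03% in mutant naïve 1 to 3.38% in WT naïve 3. The GLN internal region alone held 70.2% to 90.2% of the members' reads, and the lowest single count of any member was 274 reads, for RLTR6_Mm in mutant primed 1. Intervals were not computed, since reads are not independent molecules.

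A pair of libraries stood apart before any group was compared. The rRNA classes SSU-rRNA_Hsa and LSU-rRNA_Hsa held 37.7% of the repeat reads of WT naïve 3 and 46.7% of those of mutant primed 3, against 68.8% to 88.1% in the other 10 libraries. The median class had a value of 7.80 in WT naïve 3, 7.69 in mutant naïve 3, 7.60 in WT primed 3 and 7.81 in mutant primed 3, against 7.07 to 7.40 in the other 8. The libraries numbered 3 were thus the highest of their group for the median class, and also for most members. The counts of classes called without them are given with the processing, and why they stood higher was not tested. Values without WT naïve 3 and mutant primed 3, a choice made after the data were seen, are given for the differences of members between rescue lines or media where they end or make a call or turn a direction.

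The rescue lines were checked by Tet2 itself, whose reads include those of the construct as far as it carries the coding sequence. Tet2 had values of 12.73, 13.09 and 14.00 in WT naïve and 10.60, 10.81 and 11.95 in mutant naïve, 14.81, 14.58 and 15.09 in WT primed and 12.50, 13.20 and 13.27 in mutant primed. Every WT library was above every mutant library of the same medium. The difference was 2.16 in naïve ESCs (limma, adjusted p = 0.0154) and 1.84 in primed ESCs (adjusted p = 0.0297). The naïve call ended without WT naïve 3 (adjusted p = 0.0809), mutant naïve 1 (0.132) or mutant naïve 2 (0.121) and with no filter (0.238), over a range of 2.99e-06 to 0.238 in all alternatives. The primed call ended without WT primed 1 (0.140), WT primed 2 (0.0653), WT primed 3 (0.140), mutant primed 1 (0.151) or mutant primed 2 (0.0512) and with no filter (0.268), over a range of 2.65e-05 to 0.268. These files hold RNA and no protein values, so from them the amounts of the TET2 constructs and their activity cannot be told apart. Naïve minus primed, Tet2 differed by -1.55 with WT and -1.87 with mutant TET2, called in both lines, so the medium and the amount of Tet2 RNA cannot be told apart either.

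Markers of the labelled cell state were present. The 5 pluripotency genes, of which Nanog was the most abundant, summed to 36114.5 to 48443.1 reads per library after division by the size factor. The sum hides Zfp42, which limma called lower in naïve ESCs in both lines. Its difference was -0.94 with WT and -1.29 with mutant TET2 (limma, adjusted p = 0.00129 for the latter). Nanog was called higher in naïve ESCs with WT TET2 (0.57). The 3 naïve markers, led by Tfcp2l1, summed to 8246.6 to 13961.7 in naïve and 2761.3 to 4837.9 in primed libraries. Of them Klf4 was only 0.29 higher in naïve ESCs with WT and 0.36 with mutant TET2, and was not called. The 3 primed markers, led by Dnmt3b, summed to 648.5 to 2114.3 in naïve and 6698.0 to 12160.8 in primed libraries. Fgf5 had 0 to 19 reads and did not pass the filter.

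Markers of other cells were low, and some moved with a group. Of the 3 trophoblast markers only Eomes passed the filter (Cdx2 had 0 to 16 reads and Elf5 0 to 8), with sums of 20.3 to 29.2 in naïve and 106.0 to 161.6 in primed libraries. Of the 3 fibroblast markers only Thy1 passed (Col1a2 had 0 reads in every library), with sums of 32.0 to 90.5 in naïve and 13.2 to 19.4 in primed libraries. The 4 primitive endoderm markers, led by Sox17, summed to 25.8 to 79.6, and Gata6 did not pass the filter. Among them Dab2, with 0 to 6 reads in naïve and 6 to 45 in primed libraries, was called lower in naïve ESCs, by -1.47 with WT (limma, adjusted p = 0.000228) and -0.85 with mutant TET2 (adjusted p = 0.0127). The mutant call ended without mutant naïve 2 (0.0628) and with no filter. Eomes was called lower in naïve ESCs, by -1.62 with WT (limma, adjusted p = 4.52e-06) and -1.39 with mutant TET2 (adjusted p = 2.08e-05). Thy1 was called higher there, by 0.85 with WT (adjusted p = 0.00474) and 1.40 with mutant TET2 (adjusted p = 9.34e-05). The 3 markers of 2-cell-like cells, led by Zscan4d, had higher sums with mutant TET2: 86.4, 65.3 and 85.6 in WT naïve, 146.3, 135.7 and 227.8 in mutant naïve, 51.5, 32.6 and 66.8 in WT primed and 261.7, 122.8 and 660.4 in mutant primed. From these 3 limma called 0 between rescue lines in naïve ESCs (2 at an unadjusted p under 0.05) and 1 in primed ESCs, Zscan4d (-1.99; adjusted p = 0.0336). That call ended without mutant naïve 1 or 2, mutant primed 1 or any WT primed library (0.0515 to 0.166) and with no filter (0.281).

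The 4 Y-linked genes, led by Eif2s3y, had higher sums with WT TET2, with 4770.7, 4450.6 and 5799.3 in WT naïve, 2649.7, 2890.4 and 1891.1 in mutant naïve, 3406.2, 4174.3 and 3016.5 in WT primed and 1454.2, 1268.7 and 2195.2 in mutant primed. All 4 had higher means with WT TET2 in either medium. Of them limma called Ddx3y in naïve ESCs (1.35; adjusted p = 0.0440), and Ddx3y (1.55; adjusted p = 0.00885) and Kdm5d (1.42; adjusted p = 0.0124) in primed ESCs. The naïve call ended on leaving out any library except WT naïve 2, mutant primed 1 and mutant primed 3 (0.0540 to 0.210). The primed call of Ddx3y ended without WT primed 1, WT primed 2 or mutant primed 1 (0.0538 to 0.0587), and that of Kdm5d without these or mutant primed 2 (0.0527 to 0.0735). With no filter all 3 of these calls ended. Between media limma called Eif2s3y higher in naïve ESCs, by 0.96 with WT (adjusted p = 0.00192) and 0.83 with mutant TET2 (adjusted p = 0.00546). Both of the latter calls held with each library left out. The part of the Y-linked and 2-cell-like differences in the results for the members was not tested.

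The comparison of rescue lines within a medium asks whether the classes differ between the WT and the mutant TET2 rescue lines. The catalytic activity of TET2 cannot be told apart there from other differences between the lines. In naïve ESCs all 7 members had a higher mean with WT TET2, and 5 of 7 as a share of the reads outside both rRNA classes, a scale that moved the median of all classes to -0.14 and on which MMVL30-int was -0.058 and RLTR6-int -0.023. Of all classes 29.7% were higher on that scale. On the deposited scale the median difference was 0.28 against 0.059 over the 939 classes, of which 59.7% were higher. These medians of members and of all classes were 0.029 and -0.12 without WT naïve 3 (32.7% of the classes higher), 0.21 and -0.049 without mutant naïve 2 (41.4%) and 0.16 and 0.010 without mutant naïve 1 (51.8%). They were 0.52 and 0.083 without WT naïve 1, 0.28 and 0.21 without WT naïve 2 (79.7%) and 0.48 and 0.20 without mutant naïve 3 (80.1%). RLTR6-int also turned without WT naïve 3 (-0.11) or mutant naïve 2 (-0.013). No member was called at an adjusted p under 0.05 with a difference over 1 (limma, and also limma-voom), nor was any class (0%), and 1 member had an unadjusted p under 0.05, against 17 of the 939 classes. With the replicate block, 1 class and no member was called in naïve ESCs. The groups overlapped for all 7 members, while 5.22% of the classes had groups without overlap. Fewer cells that express an element and less RNA per cell cannot be told apart in these bulk libraries.

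In primed ESCs 6 of 7 members were higher with WT TET2, with a median difference of 0.35 against -0.064 over all classes, of which 39.2% were higher. These medians were 0.65 and 0.18 without mutant primed 3 (78.6% of the classes higher), 0.52 and 0.021 without WT primed 2 (54.5%) and 0.44 and -0.022 without WT primed 1 (45.5%). They were 0.097 and -0.22 without mutant primed 1 (20.8%), 0.13 and -0.18 without WT primed 3 (25.7%) and 0.32 and -0.14 without mutant primed 2 (31.8%). No member was called (limma, and also limma-voom), beside 3 classes (0.319%), all higher with WT TET2. The count of 3 fell to 1 without mutant primed 1, without mutant primed 2 or without WT primed 3. At an unadjusted p under 0.05 there were 2 members and 20 classes. For 2 of 7 members the groups did not overlap, against 3.41% of the classes. Without WT naïve 3 and mutant primed 3, 2 of 7 members were called in primed ESCs, against 1.06% of the classes.

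The comparison of media within a rescue line asks whether the classes differ between naïve and primed ESCs. With WT TET2, 2 of 7 members had a higher mean in naïve ESCs, but 5 of 7 as a share of the reads outside SSU-rRNA_Hsa and 1 of 7 as a share outside both rRNA classes. Of all classes 82.0% were higher as the former share and 38.1% as the latter. On the deposited scale the median difference was -0.12 against 0.060 over all classes, of which 56.2% were higher. These medians were -0.41 and -0.12 without WT naïve 3 (37.4% of the classes higher), -0.23 and -0.028 without WT primed 2 (46.9%) and -0.23 and 0.024 without WT primed 1 (52.4%). They were 0.058 and 0.10 without WT naïve 1 (61.6%), -0.023 and 0.22 without WT naïve 2 (71.4%) and -0.072 and 0.17 without WT primed 3 (68.8%). The count of 2 was 4 without WT naïve 1, 1 without WT naïve 3 and 3 without WT primed 2 or WT primed 3. The call rule took 1 member, RLTR4_MM-int, which was lower in naïve ESCs, and 22 classes (2.34%), of which 15 (68.2%) were higher. The share of higher classes among those called was 10 of 23 (43.5%) without WT naïve 3 and 21 of 44 (47.7%) without WT naïve 3 and mutant primed 3. With the replicate block 41 classes and 1 member were called. The count of 22 classes fell to 8 without WT naïve 1 or WT primed 2, to 11 without WT naïve 2 or WT primed 1 and to 12 without WT primed 3, and rose to 35 without mutant primed 3. The groups did not overlap for 1 member and for 14.4% of the classes. Without WT naïve 3 and mutant primed 3, 2 of 7 members and 4.69% of the classes were called.

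With mutant TET2, 3 of 7 members had a higher mean in naïve ESCs, 2 of 7 over the size factors of the gene table, 1 without mutant naïve 3 and 0 without mutant primed 1. Over those size factors 34.0% of all classes were higher. The median difference was -0.26 against -0.039 over all classes, of which 44.7% were higher. These medians were -0.0059 and 0.21 without mutant primed 3 (71.2% of the classes higher), -0.12 and 0.078 without mutant naïve 2 (58.0%) and -0.068 and 0.0036 without mutant naïve 1 (50.6%). They were -0.50 and -0.18 without mutant naïve 3 (31.3%), -0.32 and -0.20 without mutant primed 1 (28.1%) and -0.22 and -0.11 without mutant primed 2 (37.0%). The same member was called, beside 32 classes (3.41%), of which 22 (68.8%) were higher. That count fell to 14 without mutant naïve 1, 13 without mutant naïve 2, 15 without mutant primed 1 and 11 without mutant primed 2. The groups did not overlap for 1 member, the LTR class RLTR4_Mm, and for 11.4% of the classes.

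The scale of the values moved these comparisons of media. As a share of the reads outside SSU-rRNA_Hsa, the median of all classes went to 0.40 with WT and 0.21 with mutant TET2, and to -0.18 for the rescue lines in primed ESCs and 0.21 for the interaction. As a share of the reads outside both rRNA classes it went to -0.12 with WT TET2, and over the size factors of the gene table to -0.099 with WT and -0.15 with mutant TET2. Centring each library on its median class took it to -0.034 for the rescue lines in naïve ESCs and -0.031 between media with WT TET2. In the order of these scales, with centring last, the share of higher classes among those called was 4 of 5 (80.0%), 17 of 34 (50%), 19 of 34 (55.9%) and 19 of 31 (61.3%) with WT TET2. With mutant TET2 it was 9 of 11 (81.8%), 30 of 48 (62.5%), 21 of 37 (56.8%) and 25 of 38 (65.8%).

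**Figure D1:**
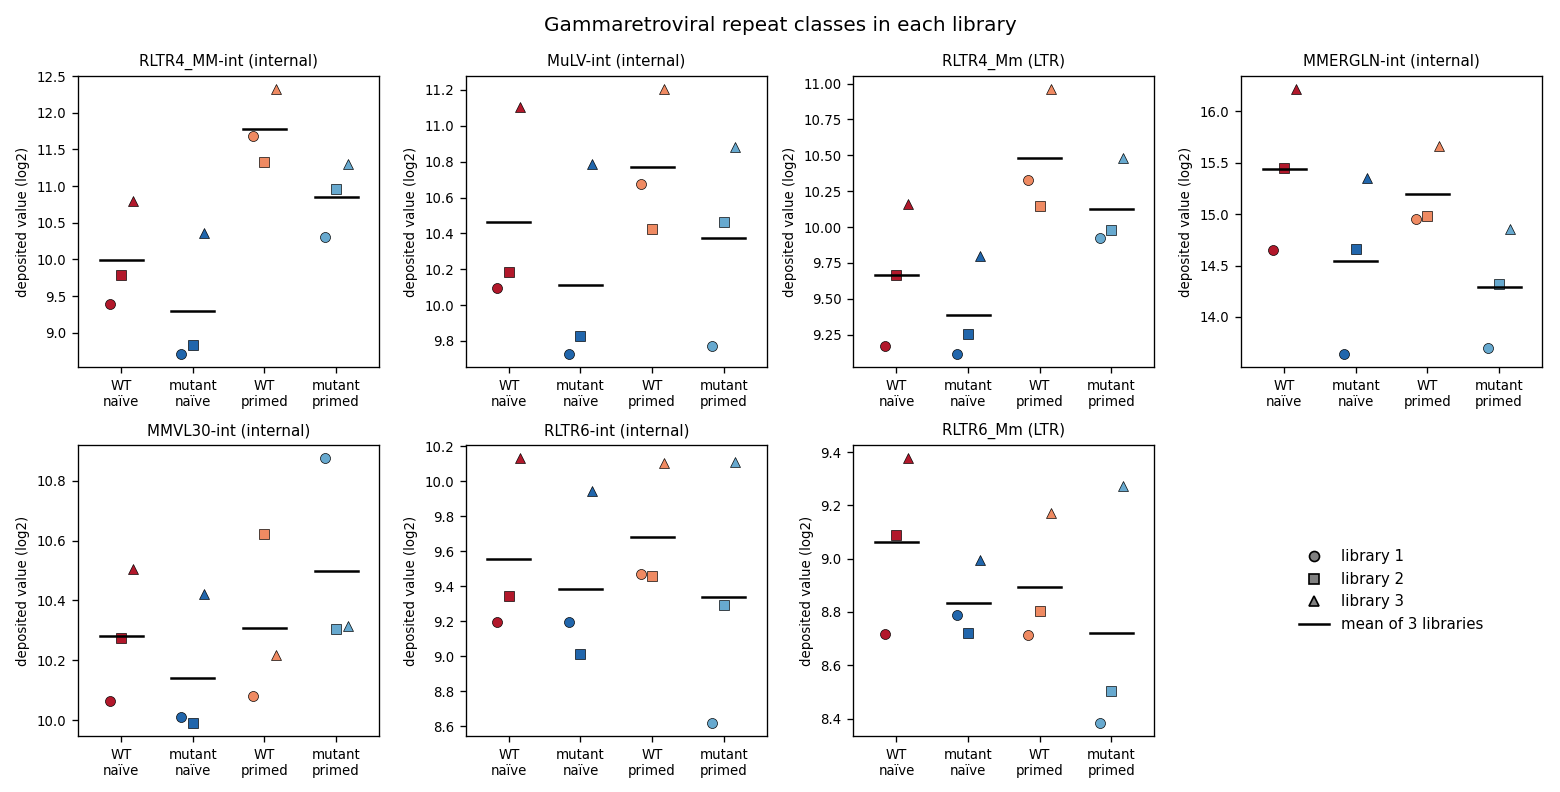
Deposited log2 value of each gammaretroviral class (vertical axis) in each library of the 4 groups (horizontal axis), with 1 panel per class; the symbols mark the library number and the bars the mean of 3 libraries. RLTR4_MM-int lies between 11.33 and 12.32 in WT primed, above all 3 WT naïve libraries (9.40 to 10.80).

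RLTR4_MM-int is the internal region of the RLTR4 proviruses, which are MuLV elements. Its values were 9.40, 9.79 and 10.80 in WT naïve, 8.71, 8.83 and 10.37 in mutant naïve, 11.68, 11.33 and 12.32 in WT primed and 10.30, 10.96 and 11.29 in mutant primed, on 422 to 8570 reads. The order of the group means was WT primed (11.78 ± 0.50, SD, n = 3), mutant primed (10.85 ± 0.51), WT naïve (10.00 ± 0.72) and mutant naïve (9.30 ± 0.92). The lowest WT primed library was above every library of the other 3 groups, while the neighbours mutant primed and WT naïve overlapped, as did WT naïve and mutant naïve.

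RLTR4_MM-int was lower in naïve than in primed ESCs in both lines. The difference was -1.78 with WT TET2 (SE 0.41; limma, adjusted p = 0.0192), with pairs of same-numbered libraries at -2.29, -1.54 and -1.52. With mutant TET2 it was -1.55 (SE 0.41; limma, adjusted p = 0.0346), and there mutant naïve 3 was above mutant primed 1, so that the groups overlapped. The calls held in 19 of 25 alternatives with WT TET2 (adjusted p from 1.02e-07 to 0.217) and in 18 of 25 with mutant TET2 (8.61e-08 to 0.374). The direction was the same in all of them. The WT call ended without WT naïve 1 (difference -1.48, adjusted p = 0.137), WT naïve 2 (-1.68, 0.0604), WT primed 1 (-1.83, 0.0644) or WT primed 3 (-1.51, 0.0998), with no filter (0.191) and as a share of the reads outside SSU-rRNA_Hsa (-1.45, 0.217). The mutant call ended without mutant naïve 1 (-1.25, 0.268), mutant naïve 2 (-1.31, 0.239), mutant primed 2 (-1.49, 0.171) or mutant primed 3 (-1.33, 0.0681), with no filter (0.289), with no variance trend (0.0525) and as a share of the reads outside SSU-rRNA_Hsa (-1.32, 0.374).

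Between the rescue lines RLTR4_MM-int had a higher mean with WT TET2 in either medium, and it was not called. In primed ESCs the difference was 0.93 (SE 0.41; limma, unadjusted p = 0.0337, adjusted p = 0.996). The primed groups did not overlap (exact permutation p = 0.1, two-sided, which is the limit of a design of 3 against 3). In naïve ESCs it was 0.69 (SE 0.41; adjusted p = 0.999), and the groups overlapped. Without WT naïve 3 and mutant primed 3 the primed difference was 1.15 and called (limma, adjusted p = 0.0396, range over alternatives 0.00774 to 1.00), and the naïve difference was 0.29. The naïve difference was also 0.40 without mutant naïve 1 and 0.46 without mutant naïve 2, and 1.23 without mutant naïve 3.

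MuLV-int is the class of internal regions annotated as MuLV itself. Its values were 10.10, 10.19 and 11.11 in WT naïve, 9.73, 9.83 and 10.78 in mutant naïve, 10.68, 10.43 and 11.20 in WT primed and 9.77, 10.46 and 10.88 in mutant primed. The libraries numbered 3 were the highest of every group, and all 4 groups overlapped. The WT minus mutant difference was 0.35 (SE 0.35) in naïve and 0.40 (SE 0.35) in primed ESCs. The naïve value was 0.029 without WT naïve 3, 0.16 without mutant naïve 1, 0.21 without mutant naïve 2, 0.53 without WT naïve 1 and 0.69 without mutant naïve 3, and the primed one 0.097 without mutant primed 1, 0.18 without WT primed 3 and 0.65 without mutant primed 3. The naïve minus primed difference was -0.31 with WT and -0.26 with mutant TET2, and the former turned to 0.030 as a share of the reads outside SSU-rRNA_Hsa. With WT TET2 it was -0.089 without WT primed 3, -0.12 without WT naïve 1, -0.17 without WT naïve 2, -0.48 without WT primed 2 and -0.63 without WT naïve 3. With mutant TET2 it was -0.0059 without mutant primed 3, -0.068 without mutant naïve 1, -0.12 without mutant naïve 2, -0.56 without mutant primed 1 and -0.60 without mutant naïve 3. None of the 4 was called (limma, adjusted p from 0.912 to 0.999). MuLV-int and RLTR4_MM-int are the internal partners of the same LTR class, and near-identical copies can share reads, since reads with several equally good positions were placed at random.

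RLTR4_Mm is that shared LTR class. Its values were 9.17, 9.67 and 10.16 in WT naïve, 9.11, 9.26 and 9.80 in mutant naïve, 10.33, 10.15 and 10.96 in WT primed and 9.92, 9.98 and 10.48 in mutant primed. Every mutant naïve library was below every mutant primed library, while WT naïve 3 was just above WT primed 2. The naïve minus primed difference was -0.81 with WT TET2 (SE 0.31; limma, unadjusted p = 0.0150, adjusted p = 0.236) and -0.74 with mutant TET2 (SE 0.31; unadjusted p = 0.0260, adjusted p = 0.375, 0.00772 to 0.999 over the alternatives). With WT TET2 all 3 pairs of same-numbered libraries were lower in naïve ESCs. With the replicate block the adjusted p was 0.00398 with WT TET2 (range over alternatives 0.00396 to 0.849), with a difference still under 1. It was called with WT TET2 as a share of the reads outside both rRNA classes (-1.01, adjusted p = 0.00446) and without WT naïve 3 and mutant primed 3 (-1.06, adjusted p = 0.00454). Between the rescue lines RLTR4_Mm was 0.28 higher with WT TET2 in naïve and 0.35 higher in primed ESCs (SE 0.31 each), with overlap in both. The naïve value was 0.029 without WT naïve 3, 0.14 without mutant naïve 1, 0.48 without mutant naïve 3 and 0.52 without WT naïve 1, and the primed one 0.11 without WT primed 3 and 0.53 without mutant primed 3.

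MMERGLN-int, the internal region of GLN, had values of 14.65, 15.44 and 16.21 in WT naïve, 13.64, 14.66 and 15.35 in mutant naïve, 14.96, 14.98 and 15.66 in WT primed and 13.70, 14.32 and 14.85 in mutant primed. In primed ESCs the lowest WT library was above the highest mutant library, and in naïve ESCs the groups overlapped. The order of the group means was WT naïve (15.44 ± 0.78, SD, n = 3), WT primed (15.20 ± 0.40), mutant naïve (14.55 ± 0.86) and mutant primed (14.29 ± 0.58), and each overlapped its neighbour.

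The WT minus mutant difference of MMERGLN-int was 0.89 in naïve ESCs (SE 0.41; limma, unadjusted p = 0.0420, adjusted p = 0.999), with pairs at 1.02, 0.79 and 0.86. With the replicate block the adjusted p was 0.0180 (range over alternatives 0.0180 to 1.00), and it was not called, since the difference is under 1. It fell to 0.43 without mutant naïve 1 and 0.50 without WT naïve 3. In primed ESCs the difference was 0.91 (SE 0.41; unadjusted p = 0.0382, adjusted p = 0.996), with an exact two-sided permutation p of 0.1. Without WT naïve 3 and mutant primed 3 it was 1.19 and called (limma, adjusted p = 0.0199, range over alternatives 0.00653 to 1.00).

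Between media MMERGLN-int was not called and differed by 0.24 with WT and 0.26 with mutant TET2 (SE 0.41 each; limma, adjusted p = 0.949 and 0.995). The direction turned with WT TET2 without WT naïve 3 (-0.15), and with mutant TET2 without mutant naïve 3 (-0.14) or mutant primed 1 (-0.039). With WT TET2 it was 0.12 without WT primed 1, 0.13 without WT primed 2, 0.47 without WT primed 3 and 0.63 without WT naïve 1, and with mutant TET2 0.54 without mutant primed 3 and 0.71 without mutant naïve 1.

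MMVL30-int, the internal region of VL30, had values of 10.06, 10.27 and 10.50 in WT naïve, 10.01, 9.99 and 10.42 in mutant naïve, 10.08, 10.62 and 10.22 in WT primed and 10.88, 10.30 and 10.31 in mutant primed. All 4 groups overlapped, the highest library was mutant primed 1, and the libraries numbered 3 were the highest of the naïve groups only. The WT minus mutant difference was 0.14 in naïve and -0.19 in primed ESCs (SE 0.27 each). The latter was the only negative difference between rescue lines among the members on the deposited scale, at -0.0023 without mutant primed 1, -0.078 without WT primed 1, -0.29 without mutant primed 2 and -0.35 without WT primed 2, and the former turned to -0.058 as a share of the reads outside both rRNA classes. The naïve minus primed difference was -0.026 with WT and -0.36 with mutant TET2. The former turned to 0.31 as a share of the reads outside SSU-rRNA_Hsa, 0.13 without WT primed 2 and 0.082 without WT naïve 1, and was -0.072 without WT primed 3 and -0.14 without WT naïve 3 or WT primed 1, and the latter was -0.17 without mutant primed 1. In naïve ESCs the rescue lines differed by 0.029 without WT naïve 3, 0.065 without mutant naïve 2, 0.075 without mutant naïve 1, 0.25 without WT naïve 1 and 0.28 without mutant naïve 3.

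RLTR6 is the family whose LTRs flank VL30. RLTR6-int, a further internal class of the family, had values of 9.20, 9.34 and 10.13 in WT naïve, 9.19, 9.01 and 9.95 in mutant naïve, 9.47, 9.46 and 10.11 in WT primed and 8.62, 9.29 and 10.11 in mutant primed. RLTR6_Mm, the LTR class, had values of 8.72, 9.09 and 9.38, 8.79, 8.72 and 8.99, 8.71, 8.80 and 9.17, and 8.38, 8.51 and 9.27 in the same groups. In both classes the library numbered 3 was the highest of every group, mutant primed 1 was the lowest of all 12 libraries, and all groups overlapped.

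The WT minus mutant difference of RLTR6-int was 0.17 in naïve and 0.34 in primed ESCs (SE 0.36 each), and that of RLTR6_Mm was 0.23 and 0.17 (SE 0.29 each). Naïve minus primed, RLTR6-int differed by -0.12 with WT and 0.044 with mutant TET2, and RLTR6_Mm by 0.17 and 0.11. None of these 8 differences was larger than its SE (limma, adjusted p from 0.949 to 0.999). Several turned when 1 library was left out: RLTR6-int in naïve ESCs without WT naïve 3 (-0.11) or mutant naïve 2 (-0.013), in primed ESCs without mutant primed 1 (-0.022), with WT TET2 without WT naïve 1 (0.058) or WT primed 3 (0.091) and with mutant TET2 without mutant naïve 3 (-0.24) or mutant primed 1 (-0.32), and RLTR6_Mm with mutant TET2 without mutant primed 1 (-0.054). The scale also turned RLTR6-int between media, to 0.21 with WT TET2 as a share of the reads outside SSU-rRNA_Hsa and to -0.061 with mutant TET2 over the gene size factors, and RLTR6_Mm to -0.021 with WT TET2 without both rRNA classes.

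Other left-out libraries changed the size of these differences. In naïve ESCs RLTR6_Mm was 0.069 without WT naïve 3 and 0.40 without WT naïve 1, and RLTR6-int 0.078 without mutant naïve 1, 0.28 without WT naïve 2, 0.35 without WT naïve 1 and 0.45 without mutant naïve 3. In primed ESCs RLTR6_Mm was 0.0059 without mutant primed 1, 0.037 without WT primed 3, 0.067 without mutant primed 2, 0.27 without WT primed 1 and 0.45 without mutant primed 3, and RLTR6-int 0.13 without WT primed 3 and 0.72 without mutant primed 3. With WT TET2 RLTR6_Mm was 0.0089 without WT naïve 3, 0.075 without WT primed 1, 0.30 without WT primed 3 and 0.34 without WT naïve 1, and RLTR6-int -0.016 without WT naïve 2, -0.23 without WT primed 1 or WT primed 2 and -0.41 without WT naïve 3. The values of either class with mutant TET2 depended on single libraries as well. There RLTR6_Mm was 0.0072 without mutant primed 2, 0.035 without mutant naïve 3 and 0.39 without mutant primed 3, and RLTR6-int 0.020 without mutant primed 2, 0.14 without mutant naïve 1, 0.23 without mutant naïve 2 and 0.43 without mutant primed 3.

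**Figure D2:**
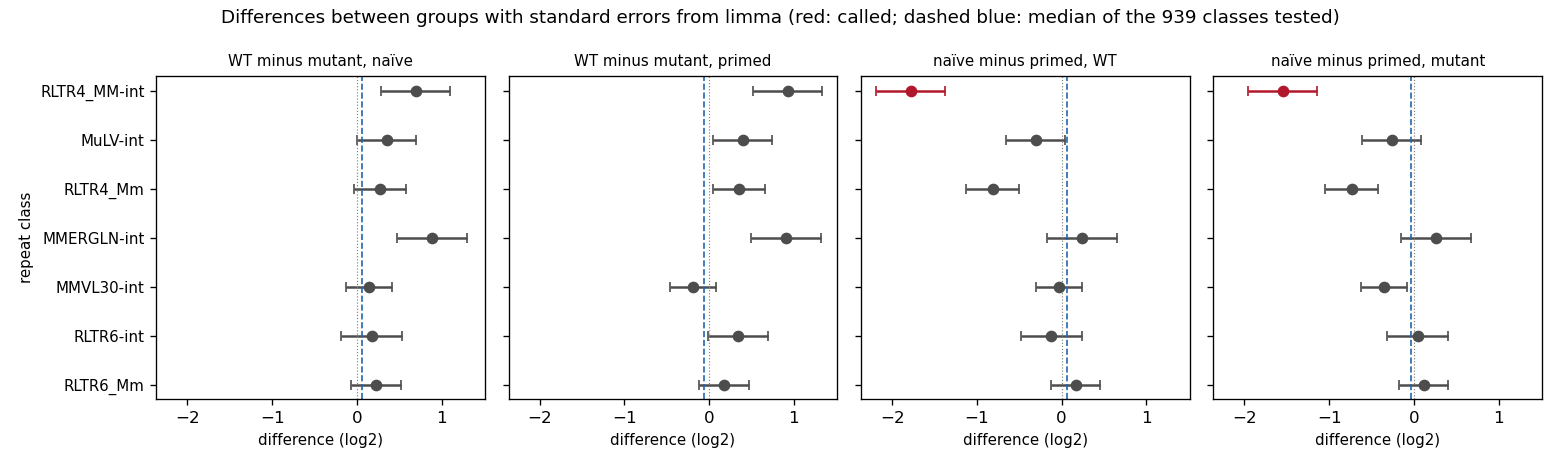
Difference between groups of each gammaretroviral class on the log2 scale (horizontal axis) for 4 comparisons of 3 libraries against 3, with bars for the standard error from limma, red for called classes and a dashed line at the median of the 939 classes tested. RLTR4_MM-int is called in both comparisons of media (-1.78 and -1.55), and no class of the 7 in either comparison of rescue lines.

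Whether the difference between rescue lines itself differed between media was tested as an interaction. Its members' values ran from -0.23 for RLTR4_MM-int to 0.33 for MMVL30-int, and 2 of 7 were positive, against 65.6% of all classes. All 7 were positive without WT naïve 1, mutant naïve 3, WT primed 3 or mutant primed 1, 3 were without WT naïve 2, and 1 was without WT naïve 3, WT primed 1 or mutant primed 3. Most classes moved with them. Positive classes were 69.8% without WT naïve 1, 80.4% without mutant naïve 3, 78.2% without WT primed 3 and 79.7% without mutant primed 1. Their share was 78.2% without WT naïve 2, 60.8% without WT primed 1, 39.1% without WT naïve 3 and 30.8% without mutant primed 3. As a share of the reads outside SSU-rRNA_Hsa 5 of 7 members and 74.4% of the classes were positive, and as a share outside both rRNA classes 1 of 7 and 38.0%. Centred on the median class it was 1 of 7 and 53.8%, and over the gene size factors 1 of 7 and 58.4%. No member and no class was called (limma, adjusted p = 0.998 for each member; 0% of the classes; limma-voom also 0), and 0 members and 4 of the 939 classes had an unadjusted p under 0.05. The value of RLTR4_MM-int turned positive without WT naïve 1 (0.068), mutant naïve 3 (0.30), WT primed 3 (0.039) or mutant primed 1 (0.043). It was -0.13 without WT naïve 2, -0.63 without WT naïve 3, -0.53 without mutant naïve 1, -0.47 without mutant naïve 2, -0.46 without WT primed 2 and -0.45 without mutant primed 3. That of MMVL30-int was 0.14 without mutant primed 1 and 0.22 without WT naïve 3 or WT primed 1. The naïve and primed differences given above for 1 class are therefore not shown to differ.

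Internal regions were set against the LTRs of their family within each library, which asks whether both parts of an element moved alike. RLTR4_MM-int minus RLTR4_Mm was 0.22, 0.13 and 0.64 in WT naïve, -0.41, -0.42 and 0.57 in mutant naïve, 1.35, 1.18 and 1.36 in WT primed and 0.38, 0.98 and 0.81 in mutant primed. The WT primed libraries were above all others. Naïve minus primed, this quantity differed by -0.97 with WT TET2 (exact two-sided permutation p = 0.1, no overlap) and by -0.81 with mutant TET2 (p = 0.2, with overlap). By the means the internal class thus differed more than the LTR class. An exact permutation p of 0.1 is the limit of 3 libraries against 3. WT minus mutant, it differed by 0.57 in primed ESCs (exact p = 0.1, no overlap) and by 0.42 in naïve ESCs (exact p = 0.3), where it fell to 0.26 without WT naïve 3 or mutant naïve 1 and to 0.25 without mutant naïve 2 and rose to 0.75 without mutant naïve 3.

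MuLV-int minus the same LTR class went the other way between media. It was 0.92, 0.52 and 0.95 in WT naïve, 0.61, 0.57 and 0.98 in mutant naïve, 0.35, 0.28 and 0.24 in WT primed and -0.15, 0.48 and 0.40 in mutant primed. Every naïve library was above every primed library of its line, by 0.51 on average with WT and 0.48 with mutant TET2 (exact two-sided permutation p = 0.1 for each), and 0.28 with mutant TET2 without mutant primed 1. The rescue lines differed by 0.076 in naïve and 0.044 in primed ESCs (exact p = 1.0 for each), values that turned to -0.0012 without mutant naïve 2 and -0.15 without mutant primed 1. The naïve one was also 0.0009 without WT naïve 3, 0.012 without WT naïve 1, 0.021 without mutant naïve 1 and 0.21 without WT naïve 2 or mutant naïve 3, and the primed one 0.014 without WT primed 1, 0.067 without WT primed 3, 0.12 without mutant primed 3 and 0.16 without mutant primed 2. The 2 internal partners of RLTR4_Mm thus stood on opposite sides of it between media.

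**Figure D3:**
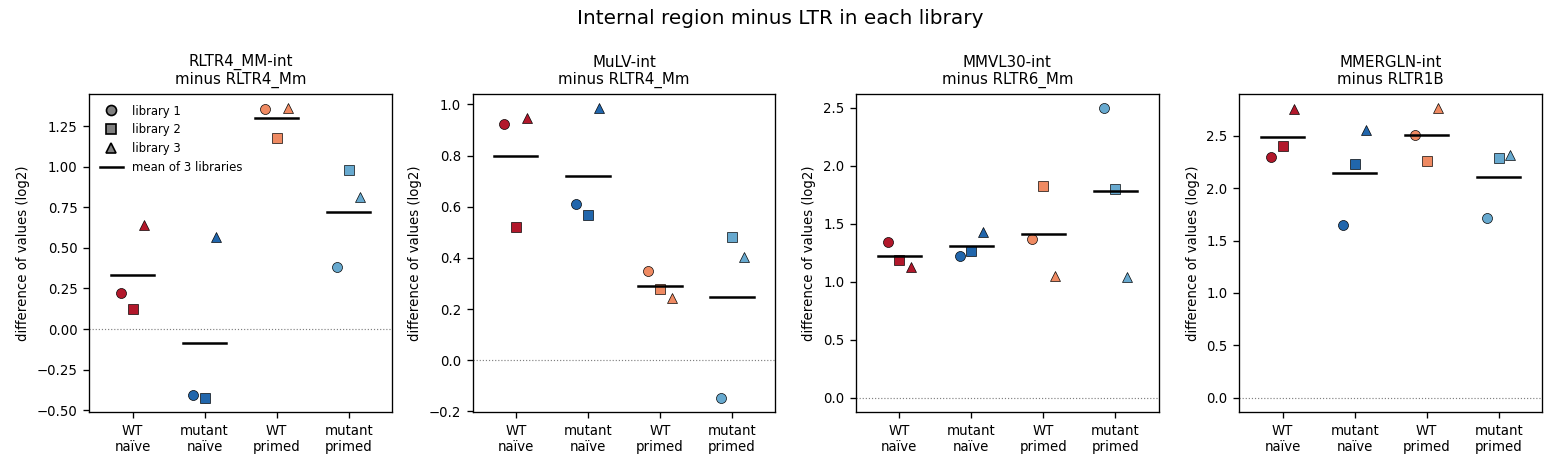
Value of an internal region minus that of an LTR class on the log2 scale (vertical axis) in each library of the 4 groups (horizontal axis), with 1 panel per pair of classes; symbols mark the library number and bars the mean of 3 libraries. RLTR4_MM-int minus RLTR4_Mm is 1.18 to 1.36 in WT primed and 0.13 to 0.64 in WT naïve, and MuLV-int minus RLTR4_Mm is 0.24 to 0.35 and 0.52 to 0.95.

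For VL30, MMVL30-int minus RLTR6_Mm was 1.34, 1.19 and 1.13 in WT naïve, 1.22, 1.27 and 1.43 in mutant naïve, 1.37, 1.82 and 1.05 in WT primed and 2.49, 1.80 and 1.04 in mutant primed. The primed libraries spread more widely than the naïve ones, with mutant primed 1 the highest of all and mutant primed 3 the lowest. The differences were -0.086 and -0.37 between rescue lines in naïve and primed ESCs and -0.19 and -0.47 between media with WT and mutant TET2 (exact two-sided permutation p = 0.4, 0.7, 0.6 and 0.4). The WT media difference was 0.011 without WT primed 2 and -0.38 without WT primed 3. The mutant media difference was -0.12 without mutant primed 1 and -0.84 without mutant primed 3. That of the primed rescue lines was -0.0082 without mutant primed 1, -0.18 without WT primed 3, -0.57 without WT primed 2 and -0.73 without mutant primed 3. The naïve one was -0.024 without mutant naïve 3, -0.040 without WT naïve 3 and -0.15 without WT naïve 1.

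No GLN LTR class is named MMERGLN in the table, and RLTR1B of the related list was set beside MMERGLN-int. That RLTR1B is the LTR of GLN was assumed and not tested in these data, and the table also holds an internal class of its own name, RLTR1B-int. MMERGLN-int minus RLTR1B was 2.29, 2.40 and 2.76 in WT naïve, 1.65, 2.23 and 2.55 in mutant naïve, 2.51, 2.25 and 2.76 in WT primed and 1.72, 2.29 and 2.31 in mutant primed. All groups overlapped, and the lowest value of either medium was in the mutant library numbered 1. The rescue lines differed by 0.34 in naïve and 0.40 in primed ESCs (exact two-sided permutation p = 0.4 and 0.3). The naïve difference was 0.092 without mutant naïve 1, 0.20 without WT naïve 3 and 0.54 without mutant naïve 3, and the primed one 0.20 without mutant primed 1. The media differed by -0.023 with WT and 0.038 with mutant TET2 (exact p = 0.9 and 1.0). The former turned to 0.10 without WT primed 3, 0.071 without WT naïve 1 and 0.019 without WT naïve 2 and was -0.16 without WT naïve 3 and -0.15 without WT primed 2. The latter turned to -0.17 without mutant naïve 3, -0.16 without mutant primed 1 and -0.0048 without mutant naïve 2, and was 0.13 without mutant primed 2, 0.14 without mutant primed 3 and 0.28 without mutant naïve 1.

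Likeness between classes was described by Pearson's r over the 12 libraries, which share 4 groups, their depth and the shift of the libraries numbered 3. The values in brackets are r after each library was centred on its median class, a choice added after the data were seen. MuLV-int and RLTR6-int had r = 0.924 (0.821) and MuLV-int and RLTR4_MM-int r = 0.807 (0.869). RLTR6_Mm and RLTR6-int had r = 0.872 (0.341), so much of that likeness was lost on centring. MMVL30-int was like neither of the RLTR6 classes, at -0.079 (-0.081) with RLTR6_Mm and -0.039 (-0.535) with RLTR6-int, and MMERGLN-int and RLTR4_MM-int had r = 0.461 (0.339).

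Over all other classes, those most like MMERGLN-int were RLTR1B, the LTR class set beside it, at 0.962 (0.890), IAPLTR2b at 0.930 (0.777) and IAPLTR4_I at 0.889 (0.819), against a median of 0.401 over all classes. RLTR4_MM-int was most like its LTR RLTR4_Mm at 0.965 (0.943), then the DNA transposon Kanga11a at 0.949 (0.944) and the LINE HAL1 at 0.947 (0.931), against a median of 0.310. Both of these internal regions thus had the LTR class set beside them as the closest of all classes on the deposited scale. MuLV-int was most like IAPLTR4 at 0.971 (0.932), L1Md_A at 0.946 (0.867) and Kanga1c at 0.943 (0.860), against a median of 0.574, and its own LTR class was not among these 3.

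RLTR6-int was most like Kanga1c at 0.952 (0.895), the LINE L2 at 0.946 (0.802) and RLTR13A2 at 0.933 (0.812), against a median of 0.644. MMVL30-int had no class as close, with RLTR9A at 0.747 (0.736), the simple repeat (CCCGAA)n at 0.673 (0.730) and (TCCTG)n at 0.638 (0.663), against a median of -0.0016. These classes were picked as the highest of many, and no test was made.

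Classes RLTR40 to RLTR47_MM begin with the same letters as RLTR4 and carry other family names. If names are matched by their first letters alone, these 16 classes, of which 15 passed the filter, count as members. Of them RLTR44D was called between media with WT TET2 (1.44; limma, adjusted p = 0.00770) and RLTR44D (1.57; adjusted p = 0.00278) and RLTR44B (1.39; adjusted p = 0.0205) with mutant TET2, all higher in naïve ESCs and so opposite to RLTR4_MM-int. The WT call of RLTR44D ended without WT naïve 1 (0.0538) or WT primed 2 (0.0601) and as a share of the reads outside SSU-rRNA_Hsa (0.121), with a range of 0.000219 to 0.121 over the alternatives, and that of RLTR44B without mutant naïve 2 (0.0671), mutant naïve 3 (0.0982), mutant primed 1 (0.0852) or mutant primed 2 (0.116), with no filter (0.0738) and as that share (0.0943), with a range of 6.45e-05 to 0.116. Matched in this way, 2 of 22 tested members were called with WT and 3 of 22 with mutant TET2, against 2.34% and 3.41% of all classes, and limma called 0 between the rescue lines in either medium.

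Related ERV1 classes of mouse gammaretroviral ancestry (RLTR1 and its subtypes, RLTR5_Mm, MURVY, MuRRS and LTRIS, 16 classes, all tested) were read as a neighbouring list. Between rescue lines 10 of 16 were higher with WT TET2 in naïve and 9 of 16 in primed ESCs, against 59.7% and 39.2% of all classes. The naïve count was 5 without WT naïve 3 (32.7% of all classes higher), 6 without mutant naïve 2 (41.4%) and 7 without mutant naïve 1 (51.8%). It was 15 without WT naïve 1 (66.1%), 14 without WT naïve 2 (79.7%) and 16 without mutant naïve 3 (80.1%). The primed count was 7 without mutant primed 1 (20.8%), 6 without mutant primed 2 (31.8%) and 7 without WT primed 3 (25.7%). It was 12 without WT primed 1 (45.5%) or WT primed 2 (54.5%) and 14 without mutant primed 3 (78.6%). As a share of the reads outside both rRNA classes the naïve count was 5 of 16, against 29.7% of all classes, and as a share outside SSU-rRNA_Hsa the primed count was 6 of 16, against 27.3%. From these 16 limma called 0 in either medium, with 0 at an unadjusted p under 0.05. RLTR1 had the largest naïve difference (0.59) and MURVY-LTR the lowest (-0.15). The latter turned positive without WT naïve 1 (0.0087), WT naïve 2 (0.12) or mutant naïve 3 (0.14), and was -0.23 without mutant naïve 1, -0.36 without mutant naïve 2 and -0.58 without WT naïve 3. In primed ESCs RLTR1B was the highest (0.51) and LTRIS4 the lowest (-0.35), which was -0.022 without mutant primed 3 and -0.65 without mutant primed 1. In the interaction LTRIS2 was the highest (0.34) and MuRRS-int the lowest (-0.40), and limma called 0 of 16. The former ran from 0.094 without mutant primed 3 to 0.52 without WT primed 3, and turned to -0.048 without WT naïve 3 and mutant primed 3. The latter ran from -0.93 without WT naïve 3 to 0.051 without mutant naïve 3.

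Between media 11 of 16 related classes were higher in naïve ESCs in either line, against 56.2% of all classes with WT and 44.7% with mutant TET2. With WT TET2 the count was 7 without WT naïve 3 (37.4% of all classes higher) and 14 without WT naïve 1 (61.6%). With mutant TET2 it was 7 without mutant naïve 3 (31.3%) and 15 without mutant primed 3 (71.2%). With WT TET2 2 of 16 were called, against 2.34% of all classes, and with mutant TET2 1 of 16, against 3.41%. LTRIS2, an LTR class of the LTR-IS elements, had values of 11.97, 12.01 and 12.41 in WT naïve and 10.72, 10.82 and 11.32 in WT primed, a difference of 1.18 (SE 0.28; limma, adjusted p = 0.0193) without overlap. Its call ended without WT naïve 1 (adjusted p = 0.0608), WT naïve 2 (0.0525), WT naïve 3 (0.0593), WT primed 1 (0.172) or WT primed 2 (0.117), as a share of the reads outside SSU-rRNA_Hsa (0.199) and as a share outside both rRNA classes (difference 0.99), over a range of 1.3e-05 to 0.199 in all alternatives. RLTR1D, an LTR, went the other way, with 7.57, 7.93 and 8.43 in WT naïve and 9.14, 9.47 and 9.29 in WT primed, and 7.89, 7.96 and 8.49 in mutant naïve and 9.34, 9.11 and 9.31 in mutant primed. Every primed library was above every naïve one. The difference was -1.33 with WT TET2 (limma, adjusted p = 0.0112, up to 0.621 in the alternatives) and -1.14 with mutant TET2 (adjusted p = 0.0271, up to 0.999). The WT call ended without WT naïve 1 (0.118) or WT primed 2 (0.0821), and the mutant call without mutant naïve 1 (0.178), mutant naïve 2 (0.149), mutant primed 1 (0.0852) or mutant primed 2 (0.0837) and in a fit of the 6 libraries alone (0.0721). Both ended as a share of the reads outside SSU-rRNA_Hsa (0.621 and 0.999). RLTR1B-int had the largest difference in the mutant line that was higher in naïve ESCs (0.85; adjusted p = 0.175, range over alternatives 0.000126 to 0.626). It was called without mutant primed 3 (1.14; adjusted p = 0.00929), without the libraries numbered 3 (1.03; 0.000126) and without WT naïve 3 and mutant primed 3 (1.14; 0.000314). The related classes called with mutant TET2 were then 4, 3 and 4 of 16, beside 45, 58 and 57 of the 939 classes.

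Host genes with a known role for gammaretroviruses were read in the gene table, in 4 lists with 31 genes, of which 30 passed the filter. Runx1, a factor that binds the MuLV enhancer, did not pass, with 1 to 13 reads. Between rescue lines none of the 30 was called in either medium (limma), while 0.0987% and 0.254% of the 14185 genes tested were. At an unadjusted p under 0.05 there were 7 of the 30 in naïve and 2 in primed ESCs, against 1882 and 2295 of the 14185. Median differences were 0.17 against 0.0032 over all genes in naïve and 0.084 against 0.0087 in primed ESCs. In the interaction limma called 0 of 30 and 0% of all genes, with 0 of 30 at an unadjusted p under 0.05.

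Zfp809, the zinc finger gene of MuLV silencing, had values of 8.40, 8.82 and 8.94 in WT naïve, 8.32, 8.40 and 8.52 in mutant naïve, 8.49, 8.61 and 8.61 in WT primed and 8.29, 8.37 and 8.88 in mutant primed, on 208 to 683 reads. All groups overlapped, and no comparison called it, with differences of 0.31 and 0.053 between rescue lines and 0.15 and -0.10 between media. The WT media difference was 0.045 without WT naïve 3 and 0.31 without WT naïve 1, and the naïve one 0.20 and 0.47. The primed difference turned without mutant primed 1 (-0.057) or mutant primed 2 (-0.018) and was 0.23 without mutant primed 3, and the mutant media difference turned without mutant primed 3 (0.079) and was -0.21 without mutant primed 1.

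Setdb1, the target of the shRNA, had values of 7.73, 7.51 and 8.21 in WT naïve, 7.56, 7.46 and 8.04 in mutant naïve, 8.19, 8.22 and 8.40 in WT primed and 7.52, 8.26 and 8.55 in mutant primed, on 114 to 585 reads. The groups overlapped in all 4 comparisons. It was 0.13 and 0.16 higher with WT TET2 in naïve and primed ESCs, which turned to -0.068 without WT naïve 3 and -0.14 without mutant primed 1 and rose to 0.31 without mutant naïve 3 and 0.38 without mutant primed 3, and it differed by -0.45 and -0.42 between media, lower in naïve ESCs, with WT and mutant TET2 (-0.30 without WT naïve 2 and -0.21 without mutant primed 3). Without mutant primed 1 the mutant media difference was -0.72 and called (limma, adjusted p = 0.0286, range over alternatives 0.0286 to 0.555).

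Between media 12 of the 30 genes were called with WT TET2, 7 higher and 5 lower in naïve ESCs, against 18.6% and 17.3% of all genes. With mutant TET2 14 were called, 7 higher and 7 lower, against 18.3% and 16.9%. By list, the 12 silencing genes gave 4 calls (1 higher, 3 lower) with WT and 6 (1 higher, 5 lower) with mutant TET2, and the 7 LTR factors that passed the filter gave 3 (2 higher, 1 lower) and 2 (1 higher, 1 lower). The 5 receptor genes gave 1 and 2, all higher, and the 6 restriction genes 4 (3 higher, 1 lower) in either line.

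Trim28, the corepressor that ZFP809 recruits, had values of 13.98, 13.87 and 13.95 in WT naïve, 13.62, 13.37 and 13.98 in mutant naïve, 15.06, 14.70 and 14.87 in WT primed and 14.90, 14.86 and 14.45 in mutant primed. Every naïve library was below every primed library, with a difference of -0.94 with WT (limma, adjusted p = 0.000974) and -1.08 with mutant TET2 (adjusted p = 0.000341). Between rescue lines in primed ESCs it differed by 0.14, by -0.0018 without mutant primed 3, 0.049 without WT primed 1 and 0.22 without WT primed 2 or mutant primed 1. Among the other silencing genes, Chaf1b, a subunit of the chromatin assembly factor CAF-1, was higher in naïve ESCs (0.88, adjusted p = 0.00185, and 0.75, adjusted p = 0.00569), while its partner Chaf1a was lower (-0.76, adjusted p = 0.00232, and -0.57, adjusted p = 0.0148). The mutant call of Chaf1a ended without mutant naïve 2, mutant primed 1 or mutant primed 2 (adjusted p from 0.0589 to 0.0802). Yy1, whose protein binds the MuLV LTR, was lower with mutant (-0.89; adjusted p = 0.00115) and with WT TET2 (-0.48; adjusted p = 0.0457), at -0.32 without WT naïve 1, and the latter call ended on leaving out any library except WT naïve 3, mutant primed 1 and mutant primed 3 (adjusted p from 0.0507 to 0.199). Pa2g4 (-0.50; adjusted p = 0.0139), which codes for EBP1, and Cbx5 (-0.49; adjusted p = 0.0411), which codes for HP1α, were called with mutant TET2. With WT TET2 they were not, at -0.36 (adjusted p = 0.0673) and -0.39 (adjusted p = 0.0940; -0.22 without WT naïve 2), and the lines were not shown to differ (interactions 0.15 and 0.096, adjusted p = 0.977 and 0.987). The call of Pa2g4 ended without mutant primed 1 (0.0540), and that of Cbx5 on leaving out any library except WT naïve 1 to 3 and mutant primed 1 (0.0521 to 0.183).

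Slc7a1, the receptor of ecotropic MuLV, had values of 11.27, 10.97 and 11.28 in WT naïve, 10.90, 10.98 and 11.28 in mutant naïve, 9.79, 9.57 and 9.98 in WT primed and 9.39, 9.54 and 10.16 in mutant primed. Every naïve library was above every primed library, by 1.40 on average with WT (limma, adjusted p = 4.56e-05) and 1.36 with mutant TET2 (adjusted p = 6.19e-05). Between rescue lines in primed ESCs it differed by 0.082, which turned without WT primed 3 (-0.018) or mutant primed 1 (-0.071) and was 0.31 without mutant primed 3. Xpr1, the receptor of xenotropic and polytropic MuLV, was higher in naïve ESCs with mutant TET2 (0.71; adjusted p = 0.0304), and that call ended without mutant naïve 1, mutant naïve 2, mutant primed 1 or mutant primed 2 (adjusted p from 0.0649 to 0.152), with a difference of 0.45 without mutant primed 1. With WT TET2 it was 0.41 higher (adjusted p = 0.202; 0.21 without WT naïve 1), and the lines were not shown to differ (interaction -0.31, adjusted p = 0.976).

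Among the restriction genes, Apobec3, a cytidine deaminase gene, was 1.40 and 1.39 higher in naïve ESCs with WT and mutant TET2 (limma, adjusted p = 5.22e-05 and 6.01e-05), and Bst2, which codes for tetherin, 1.27 and 1.45 (adjusted p = 0.000211 and 6.59e-05). Mov10, an RNA helicase gene, was 0.96 higher with mutant (adjusted p = 0.00332) and 0.66 higher with WT TET2 (adjusted p = 0.0278), and the latter call ended without WT naïve 1, WT naïve 2 or WT primed 2 (adjusted p from 0.0563 to 0.138). Samhd1, a dNTPase gene, was lower, with differences of -0.60 and -0.57 (adjusted p = 0.00414 and 0.00583). Fv1, the capsid-binding restriction gene, had 4 to 44 reads, and its differences (-0.073 and -0.12 between rescue lines, 0.059 and 0.0080 between media) were not called. All 4 turned when a library was left out, the last also on centring (-0.022): to 0.032 without WT naïve 2, to 0.018 without mutant primed 2 or 0.012 without mutant primed 3, to -0.041 without WT naïve 3, -0.043 without WT primed 1 or -0.054 without WT primed 2, and to -0.041 without mutant naïve 3 or -0.27 without mutant primed 1.

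Factors that bind gammaretroviral LTRs split by gene. Nfyc, a subunit of NF-Y, was lower in naïve ESCs, with a difference of -0.99 with WT (limma, adjusted p = 0.00455; -0.65 without WT naïve 1) and -1.21 with mutant TET2 (adjusted p = 0.00109). The ETS factor gene Ets2 was higher, by 0.73 (adjusted p = 0.0376) and 0.84 (adjusted p = 0.0196), and Gabpa, a further ETS factor gene, by 0.56 with WT TET2 (adjusted p = 0.0444). The WT call of Ets2 ended without WT naïve 1 or any WT primed library (adjusted p from 0.0568 to 0.154) and the mutant one without mutant naïve 1 or mutant primed 2 (0.103 to 0.108). The call of Gabpa ended without WT naïve 1, WT naïve 3, WT primed 1, WT primed 3 or mutant primed 2 (0.0571 to 0.153), and with mutant TET2 its difference of 0.13 turned without mutant naïve 1 (-0.016) or mutant primed 1 (-0.074), while the lines were not shown to differ (interaction 0.43, adjusted p = 0.976). With no filter on low values the calls of Yy1, Ets2, Gabpa and Mov10 with WT TET2 and of Cbx5, Ets2 and Xpr1 with mutant TET2 ended, and on centring that of Gabpa. Calls that ended with the replicate block included Yy1 with WT (limma, adjusted p = 0.0632) and Cbx5 with mutant TET2 (adjusted p = 0.0572). That pairing was not accepted over genes between media in either line. The calls of Trim28, Slc7a1, Apobec3, Bst2, Nfyc, Chaf1b and Samhd1 between media held in all 15 alternatives for genes in both lines.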

How the data were processed

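RNA-seq values of 12 libraries, 3 in each of 4 groups by their labels, were used. The authors trimmed reads with Trim Galore 0.3.3, aligned them to mm9 with TopHat2 2.0.9, a read with several equally good positions going to 1 of them at random, and made the deposited log2 values with the variance-stabilising transformation of DESeq2. Its inverse gave whole reads for 100% of the values (tolerance 0.05), from 8066662 to 21335933 gene reads per library.

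Members and lists were chosen with earlier results of these data known. Names were matched by family, not by first letters alone. Of the host and marker genes, 3 symbols were matched by RefSeq synonyms. The text names every member, related classes called or with the largest difference in each direction, host genes called or among 5 set ones, the 3 classes most like each internal region, and Tet2.

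Classes and genes were tested in separate tables with limma 3.58.1 in R 4.3.3, two-sided, with all 12 libraries in 1 fit, an intensity trend and Benjamini-Hochberg adjustment over every feature with a mean at least 1 above the lowest value. A class was called when its adjusted p was under 0.05 and its difference over 1, a gene when its adjusted p was under 0.05. The procedure was tested on simulated data. Tables were made with pandas 2.3.3 and numpy 2.4.6 in Python 3.11.15, and figures with matplotlib 3.10.9.

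The replicate block pairs libraries by their number. A pairing was accepted where each same-numbered pair correlated above 0.1 after group means were removed. Naïve WT and mutant libraries had r = 0.417, 0.289 and 0.485 (mean 0.397) over classes and 0.586, 0.300 and 0.385 (mean 0.424) over genes, and WT naïve and primed libraries 0.135, 0.158 and 0.300 (mean 0.198) over classes.

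Alternatives were other filters, no trend, no limit on the difference, the block, the 6 libraries of a comparison alone, centring, shares of the reads outside SSU-rRNA_Hsa, limma-voom and each library left out. Chosen after seeing the data were shares of the reads outside both rRNA classes, gene size factors, leaving out the libraries numbered 3 or those under 50% rRNA, centring with the block, centred correlations and literal names.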

Additional observations from a re-analysis of the deposited data

How the results depend on the processing

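The differences between rescue lines or media named in the report were computed again, those of classes under 25 alternatives, those of genes under 15 and those of an internal region minus an LTR class under 9. The direction of RLTR4_MM-int between media, and of RLTR4_MM-int, MuLV-int, RLTR4_Mm, RLTR6_Mm and MMERGLN-int between rescue lines, was the same in all 25. Where a value below differs from the report, the cause was not tested, except that leaving out libraries leaves fewer of them and that a fit without a filter adjusts over 1217 classes.

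The replicate block gave 1 class in place of 0 in naïve ESCs and 41 in place of 22 between media with WT TET2. The pairing was not accepted in primed ESCs (r = 0.052, -0.019 and 0.334 over classes, mean 0.123; 0.161, -0.065 and 0.189 over genes, mean 0.0950) or between media with mutant TET2 (0.199, 0.054 and 0.195, mean 0.149; -0.047, -0.146 and -0.079, mean -0.091). Over genes it was not accepted between media with WT TET2 (0.220, 0.145 and -0.016, mean 0.116). With the block, limma gave 3 classes in primed ESCs, with adjusted p = 0.00812 for MMERGLN-int (range over alternatives 0.00653 to 1.00) and 0.00774 for RLTR4_MM-int (0.00774 to 1.00), and 43 classes in place of 32 with mutant TET2. Host genes called between media went from 12 to 10 with WT and from 14 to 13 with mutant TET2. The calls that ended included Yy1 with WT and Cbx5 with mutant TET2. Centring with the block gave 1 class in naïve ESCs and 34 with WT TET2.

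Without the libraries numbered 3, the classes called were 1 in naïve and 5 in primed ESCs, and 51 with WT and 58 with mutant TET2 between media. Without WT naïve 3 and mutant primed 3 they were 5, 10, 44 and 57, with 2 members in primed ESCs and 2 between media with WT TET2. MMERGLN-int between media with WT TET2 was then -0.15, RLTR6-int in naïve ESCs -0.11 and the LTRIS2 interaction -0.048. Without the libraries numbered 3, MMVL30-int minus RLTR6_Mm in naïve ESCs was 0.021 and MMERGLN-int minus RLTR1B between media with mutant TET2 was -0.061.

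As a share of the reads outside SSU-rRNA_Hsa, limma called 0 classes in primed ESCs (3 at an unadjusted p under 0.05), 5 between media with WT and 11 with mutant TET2, and 0 members in either line (1 at an unadjusted p under 0.05 in each). MMVL30-int with WT TET2 was then 0.31, MuLV-int 0.030 and RLTR6-int 0.21. As a share outside both rRNA classes, 34 classes and 2 members were called with WT TET2, RLTR6_Mm with WT TET2 was -0.021, and in naïve ESCs MMVL30-int was -0.058 and RLTR6-int -0.023. Over the gene size factors 34 classes were called with WT TET2 and RLTR6-int with mutant TET2 was -0.061. The 6 libraries of the comparison alone gave 35 classes with WT TET2. With no filter limma called 0 members in either line (2 at an unadjusted p under 0.05 in each) and 19 classes with mutant TET2, and with no variance trend 0 members with mutant TET2 (2 at an unadjusted p under 0.05). Names taken by their first letters gave 2 members with WT and 3 with mutant TET2. Centred on the median gene, Fv1 with mutant TET2 was -0.022.

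Leaving out each library in turn gave 1 to 3 classes in primed ESCs, 8 to 35 between media with WT TET2 and 11 to 45 with mutant TET2, and 0 to 1 members between media in either line. Between media with WT TET2 the differences ran from -0.15 to 0.63 for MMERGLN-int, -0.14 to 0.13 for MMVL30-int, -0.41 to 0.091 for RLTR6-int and -0.054 to 0.27 for Fv1. With mutant TET2 they ran from -0.14 to 0.71 for MMERGLN-int, -0.054 to 0.39 for RLTR6_Mm, -0.32 to 0.43 for RLTR6-int, -0.21 to 0.079 for Zfp809, -0.074 to 0.36 for Gabpa and -0.27 to 0.15 for Fv1. In naïve ESCs they ran from -0.11 to 0.45 for RLTR6-int, -0.58 to 0.14 for MURVY-LTR, -0.068 to 0.31 for Setdb1 and -0.17 to 0.032 for Fv1. In primed ESCs they ran from -0.022 to 0.72 for RLTR6-int, -0.057 to 0.23 for Zfp809, -0.0018 to 0.22 for Trim28, -0.14 to 0.38 for Setdb1, -0.071 to 0.31 for Slc7a1 and -0.40 to 0.018 for Fv1. Interactions ran from -0.63 to 0.30 for RLTR4_MM-int and -0.93 to 0.051 for MuRRS-int. MuLV-int minus RLTR4_Mm ran from -0.0012 to 0.21 in naïve and -0.15 to 0.16 in primed ESCs, and MMVL30-int minus RLTR6_Mm from -0.38 to 0.011 with WT TET2. MMERGLN-int minus RLTR1B ran from -0.16 to 0.10 with WT and -0.17 to 0.28 with mutant TET2.

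Depth limits Fv1 (4 to 44 reads) most among the host genes tested. Reads of near-identical copies cannot be assigned to 1 element, and the classes pool full-length and truncated copies.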
